A study of Mus musculus with 25 samples.

Results

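The microRNA hairpin mmu-mir-223 was followed through blood of mice at 5 ages. It was chosen by name, with earlier results of these data known. It is 1 of the 1193 hairpins (microRNA precursors) in the deposited count table. Of these, 865 had a count in some library and 855 were too scarce to be tested. Male mice of the inbred laboratory strain C57BL/6 were sampled at 2, 9, 15, 24 and 30 months, with 5 libraries at each age and 25 in all. Every library was made from total RNA of blood with the TruSeq small RNA kit. No treatment or mutation is given for any group, so the ages differ by label in age alone. The table holds 1 value per hairpin and library, so the arms of a hairpin were not separated. The labels call the samples separate but do not describe how animals were housed or bled. The p-values thus set differences between ages against the spread between these libraries, whatever its source.

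A microRNA is cut from a hairpin transcript and, loaded into an Argonaute protein, lowers the output of messenger RNAs that pair with its seed. miR-223 is a hallmark microRNA of the myeloid lineage: it is abundant in neutrophils and monocytes, is also carried by platelets, and restrains the production and the inflammatory activity of granulocytes in mice. In whole blood its level depends on how many such cells are present and on how much each cell makes. In these bulk samples fewer cells of a type and less RNA per cell cannot be told apart.

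The hairpin and its mature arms are shown because the table sums over both arms. Other hairpins were searched for either whole arm, and other mature entries for either seed. Mir223 lies at chrX:96242817-96242926 on the plus strand of the mouse assembly GRCm38.p6. The GENCODE annotation places it in the last exon of the long non-coding RNA F630028O10Rik, which lies on the same strand and is tagged there as the host of a non-coding RNA. The hairpin starts 2891 bases after the start of that gene. The nearest protein-coding genes are Msn, 74265 bases before it, and Vsig4, 4277 bases after it on the minus strand. The nearest other hairpin, Mir7673, is 1968180 bases away, so mir-223 is not part of a close cluster. The sequences are from RefSeq, 5′ to 3′, with both mature arms in capitals in the hairpin and the seed (bases 2 to 8) in capitals in each arm.
mmu-mir-223 hairpin: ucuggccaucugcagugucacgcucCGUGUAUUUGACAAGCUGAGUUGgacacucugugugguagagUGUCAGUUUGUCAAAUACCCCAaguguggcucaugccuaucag
mmu-miR-223-5p: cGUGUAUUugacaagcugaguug
mmu-miR-223-3p: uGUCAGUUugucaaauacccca
Among the 1738 mature entries of the RefSeq table, 0 others had the seed GUGUAUU of the 5p arm and 0 others had the seed GUCAGUU of the 3p arm. None of the other hairpins in that table, which holds 1005 in all, contained either whole arm. Reads of mir-223 therefore have no second hairpin in that table that they match over a whole arm.

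The libraries held 4.884 to 24.25 M counts, and mir-223 took 697 to 4149 of them in each, far over the floor of 3 counts. The 30-month libraries were shallower than the 2-month libraries: the totals ran from 5.747 to 13.07 M at 30 months, against 16.21 to 22.25 M at 2 months. Counts were scaled to CPM (a share of the library, in counts per 1 M counts) with edgeR's TMM factors, which set libraries to a common level over most hairpins. Red cell hairpins, led by mir-486a, mir-486b, mir-451a and mir-451b, made up 69.04% to 79.20% of counts at 30 months and 74.7% to 80.6% at 2 months. mir-486a and mir-486b averaged 296100 and 295900 CPM over the 25 libraries, and mir-451a and mir-451b 85140 and 85120 CPM. Reads of each pair cannot be told apart here and may be counted in both, so these shares and the library totals may be overstated. mir-223 was thus read as a small share of a library dominated by red cell RNA. The column names give the sequencing lane and the index sequence of each library. Sorted by letter, the index sequences run in the order of age but for those of 30 months replicates 4 and 5, so index and age cannot be told apart.

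mir-223 was lowest at 2 months and highest at 30 months, with 15 months below 9 months in between. The mean level was 58.2 ± 2.85 CPM at 2 months, 114 ± 26.6 CPM at 9 months, 81.8 ± 10.4 CPM at 15 months, 133 ± 22.6 CPM at 24 months and 158 ± 44.1 CPM at 30 months (n = 5 each, SD). edgeR's quasi-likelihood test over all ages gave an adjusted p of 8.97e-06 for mir-223, which ranked 4 by p among the tested hairpins. That test called 27 hairpins, or 7.99% of those tested.

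The 2-month libraries had 58.6, 62.5, 55.1, 58.5 and 56.1 CPM. The 9-month libraries had 101, 98.1, 161, 102 and 107 CPM, of which the third stood well over the others. The 15-month libraries had 66.3, 85.4, 76.3, 90.9 and 90.1 CPM. All 15-month libraries thus lay over all 2-month libraries and under all 9-month libraries. The 24-month libraries had 150, 115, 164, 123 and 113 CPM. The 30-month libraries had 140, 208, 109, 201 and 132 CPM. At 30 months replicates 2 and 4 stood well over the others, while the lowest lay among the 9-month values. In order of abundance within its own library, mir-223 ranked 100 to 104 at 2 months, 77 to 88 at 9 months, 86 to 96 at 15 months, 74 to 85 at 24 months and 64 to 83 at 30 months.

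**Figure D1:**
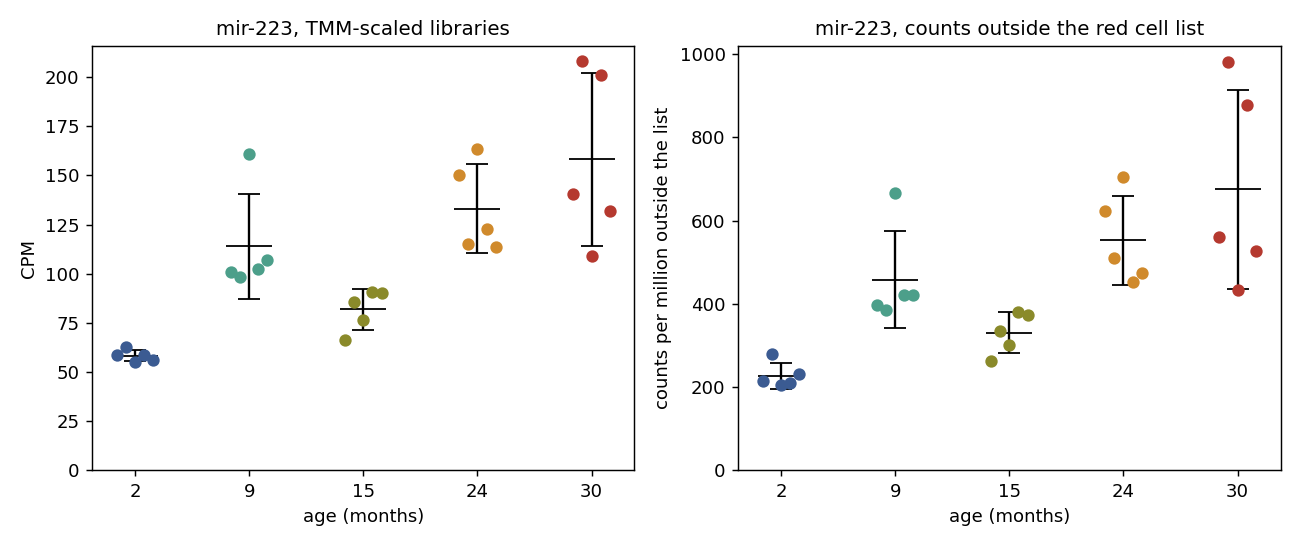
mir-223 at 5 ages, left in CPM after TMM scaling and right in CPM of the counts outside the red cell hairpins; points are libraries, horizontal bars the mean and whiskers the SD (n = 5 each). On the left the 2-month libraries sit between 55.1 and 62.5 CPM, under every library of the other ages, and the 15-month libraries sit between 66.3 and 90.9 CPM.

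The same order held when red cell RNA was left out of the total. In CPM of the counts outside those hairpins, mir-223 averaged 227 ± 31.1 at 2 months, 458 ± 117 at 9 months, 331 ± 49.1 at 15 months, 553 ± 107 at 24 months and 675 ± 239 at 30 months (n = 5 each, SD). In the shallowest library, 24 months replicate 4, its level by library total was 143 CPM with a 95% Clopper-Pearson interval of 132 to 154, and in the deeper 2 months replicate 1 it was 47.1 CPM with an interval of 44.3 to 50.1. These intervals cover counting error only, and they are narrow beside the differences between ages. They treat each count as a separate molecule, which cannot be checked because the kit adds no molecular identifiers.

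Against 2 months, mir-223 rose at 9, 24 and 30 months, and the 15-month difference did not pass the test. These 4 comparisons share the same 2-month libraries and are not independent of each other. At 9 months the log2 change was 0.97 ± 0.17 (SE), a 1.96-fold higher level, with an adjusted p of 9.24e-04 by edgeR. In that comparison 2.07% of the tested hairpins were called and 1.18% were higher at 9 months, and mir-223 ranked 3 by p. At 24 months it was 1.19 ± 0.17, or 2.29-fold, with an adjusted p of 3.02e-05 by edgeR, where 12.1% were called, 7.69% higher and 4.44% lower. At 30 months it was 1.44 ± 0.17, or 2.72-fold with a 95% interval of 2.12 to 3.49, and the adjusted p was 1.65e-06 by edgeR, where 14.2% were called and 9.17% were higher. mir-223 again ranked 3 by p at 30 months.

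At 15 months the log2 change against 2 months was 0.49 ± 0.17, a ratio of 1.41 with a 95% interval of 1.10 to 1.796. The unadjusted p was 0.00838 and the adjusted p was 0.354 by edgeR, where 1.48% of hairpins were called. That fit shares its estimate of spread over all ages. The adjusted p was 0.0857 in an edgeR fit of those 2 ages alone and 0.830 in edgeR with upper-quartile factors, and no alternative passed. The 5 libraries of 15 months nevertheless did not overlap the 5 of 2 months. Without regard to direction, 3.25% of hairpins had no overlap between 9 and 2 months, 2.37% between 15 and 2 months, 10.4% between 24 and 2 months and 10.7% between 30 and 2 months. Values without overlap and higher at the older age were seen for 0.888% of hairpins at 15 months, 1.78% at 9 months, 5.03% at 24 months and 5.62% at 30 months, and mir-223 was among them at each of these ages.

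**Figure D2:**
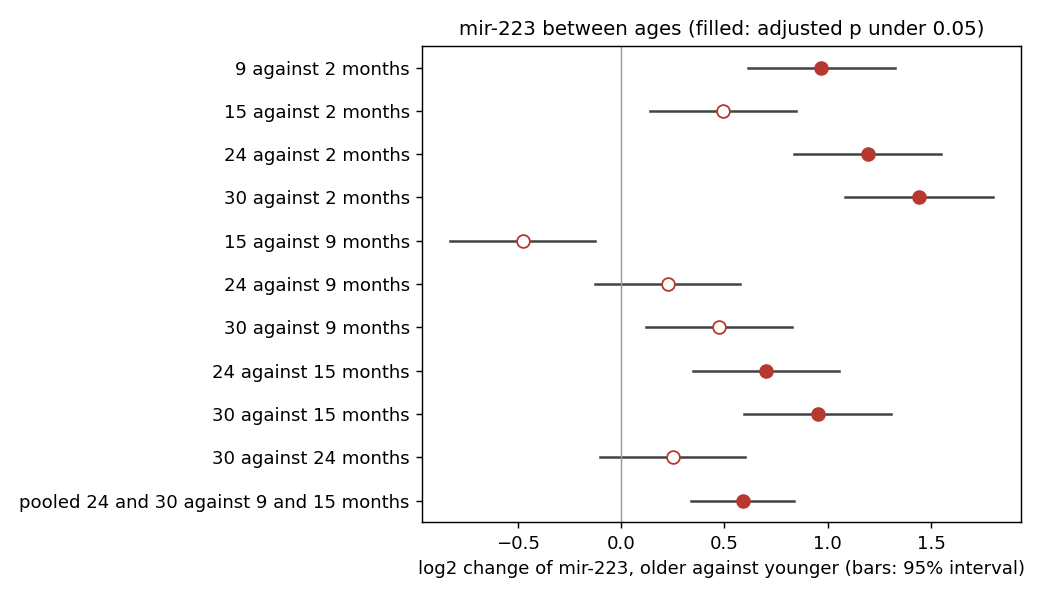
log2 change of mir-223 for each pair of ages, older against younger, and for 24 and 30 months pooled against 9 and 15 months pooled; bars are 95% intervals from edgeR's fit and filled points have an adjusted p under 0.05. The changes against 2 months reach 1.44 at 30 months, and 15 against 9 months is the one comparison below 0, at -0.48.

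At 15 months mir-223 had a lower mean than at 9 months, a difference that did not pass the test over all hairpins. The log2 change at 15 against 9 months was -0.48 ± 0.17, a ratio of 0.718 with a 95% interval of 0.563 to 0.917. The unadjusted p was 0.0101 and the adjusted p was 0.997 by edgeR. That comparison called 0 hairpins, or 0%, and 7 had an unadjusted p under 0.05. mir-223 had the lowest p of all tested hairpins, and it was the 1 hairpin, 0.296% of those tested, whose 15-month libraries did not overlap the 9-month libraries.

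At both later ages mir-223 was higher than at 15 months. At 24 against 15 months the log2 change was 0.70 ± 0.17, or 1.63-fold, with an adjusted p of 0.0348 by edgeR, where 2.07% were called and 1.78% were higher. The groups did not overlap, which held with the older age higher for 1.78% of hairpins. This call ended when 1 library was left out in 9 of 10 cases, with adjusted p up to 0.188, and the log2 change then ran from 0.61 to 0.78; it remained a call without 24 months replicate 2. Left out one at a time, each of the 15-month libraries and 24 months replicates 1, 3, 4 and 5 ended it. At 30 against 15 months the log2 change was 0.95 ± 0.17, or 1.93-fold, with an adjusted p of 0.00175 by edgeR, where 1.48% were called and 0.888% were higher. Those groups did not overlap either.

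Among 9, 24 and 30 months, the ages with the higher levels, no difference passed the test. At 24 against 9 months the log2 change was 0.22 ± 0.17, with an adjusted p of 0.650 by edgeR and a 95% interval for the ratio of 0.916 to 1.49, where 1.78% of hairpins were called. At 30 against 9 months it was 0.47 ± 0.17 with an adjusted p of 0.208 by edgeR, where 1.48% were called. The interval of that ratio ran from 1.09 to 1.77, and the libraries of the ages overlapped. Without 9 months replicate 3 that log2 change was 0.70 with an adjusted p of 0.0404 by edgeR. At 30 against 24 months the log2 change was 0.25 ± 0.17, a ratio of 1.19 with an interval of 0.931 to 1.52, and the adjusted p was 0.885 by edgeR. That comparison called 0 hairpins, or 0%, and 13 had an unadjusted p under 0.05.

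A straight line over age gave a rise of 0.43 ± 0.07 log2 units per 10 months (SE), with an adjusted p of 1.53e-04 by edgeR. Trends were common: 19.8% of hairpins were called, 10.7% rose with age, and mir-223 ranked 5 by p. Without the 2-month libraries the rise was 0.316 log2 units per 10 months with an adjusted p of 0.0600 by edgeR. The test of the ages against a line gave mir-223 an adjusted p of 0.104 and an unadjusted p of 7.54e-04, rank 2 by p, where 0.296% of hairpins were called. It passed without 30 months replicate 3, with an adjusted p of 0.0455 by edgeR. With the 24- and 30-month libraries pooled against the 9- and 15-month libraries, the log2 change was 0.59 ± 0.12, or 1.503-fold, with an adjusted p of 0.00385 by edgeR. In that comparison 3.85% were called and 2.66% were higher at the later ages.

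Scaling to plain library totals moved the median of all hairpins, by 0.36 log2 units at 24 against 2 months and 0.241 at 30 against 2 months. The log2 change of mir-223 was then 1.58 at 24 months and 1.66 at 30 months. Relative to the median of all hairpins it was 1.220 and 1.460 with library totals, beside 1.197 and 1.481 with TMM factors. The calls over all hairpins were less even with library totals, at 69 higher and 3 lower for 24 months and 51 higher and 6 lower for 30 months, against 26 and 15 and 31 and 17 with TMM factors. With upper-quartile factors the split at 24 months was 21 higher and 3 lower. For the line over age 36 hairpins rose and 31 fell with TMM factors, while 80 rose and 9 fell with library totals and 38 rose and 18 fell with upper-quartile factors.

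The spread between animals also differed by age. At 2 months the coefficient of variation was 4.90%, against 3.22% from counting alone, and 3 of the 153 hairpins with at least 10 CPM varied less. The median over those hairpins was 17.8%. The coefficient for mir-223 was 23.3% at 9 months, 12.8% at 15 months, 16.96% at 24 months and 27.9% at 30 months, while counting alone would give 2.39% to 2.68% at those ages. The highest library stood 1.91-fold over the lowest at 30 months and 1.13-fold at 2 months. Over all hairpins with at least 10 CPM the median coefficient was 20.2% at 30 months, and 105 of 152 varied less than mir-223. The difference in spread between ages was not tested.

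To set mir-223 beside single hairpins of other blood cells within the same library, its counts were divided by those of 5 others. mir-142a is expressed across blood leukocytes. Per 1000 counts of mir-142a, mir-223 had 15.0, 27.4, 13.8, 26.5 and 14.1 counts in the 30-month libraries. The 2-month libraries had 8.19, 7.88, 8.16, 7.11 and 7.57 counts, all under every 30-month library. The other ages ran from 8.65 to 17.4 at 9 months, from 8.30 to 12.3 at 15 months and from 10.1 to 26.9 at 24 months.

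The log2 ratio to mir-142a was higher than at 2 months by 0.75 ± 0.18 at 9 months, 0.33 ± 0.13 at 15 months, 1.18 ± 0.24 at 24 months and 1.24 ± 0.23 at 30 months (SE, n = 5 each). Each had a two-sided exact permutation p of 0.00794, the smallest that 5 against 5 libraries can give, and an adjusted p of 0.0132 over 20 ratio tests. With any 1 of the 2-month libraries left out, the 15-month ratio no longer passed, with adjusted p up to 0.0733 and a difference of 0.25 to 0.39 over all 10 libraries left out in turn. mir-142a itself averaged 8372 ± 922 CPM at 30 months, against 7500 ± 593 CPM at 2 months (n = 5 each, SD), with a log2 change of 0.16 and an adjusted p of 0.656 by edgeR. Reads of mir-142a and of mir-142b on the opposite strand cannot be told apart here.

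mir-451a, which is made in maturing red cells, gave ratios of the same direction. mir-223 had 1.58 to 2.43 counts per 1000 counts of mir-451a at 30 months and 0.526 to 0.700 at 2 months, with no overlap. The log2 ratio differed by 0.96 at 9 months, 0.62 at 15 months, 1.62 at 24 months and 1.61 at 30 months, each with an exact permutation adjusted p of 0.0132. mir-451a itself had a log2 change of -0.21 at 30 months with an adjusted p of 0.347 by edgeR. It was lower at 24 months, with a log2 change of -0.44 and an adjusted p of 0.0375 by edgeR, and this adds to the ratio at that age.

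mir-150, which marks mature lymphocytes, varied more between animals. mir-223 had 294 to 951 counts per 1000 of mir-150 at 30 months and 132 to 218 at 2 months, again with no overlap. The log2 ratio differed by 1.75 ± 0.30 at 30 months, with an exact permutation adjusted p of 0.0132. At 24 months 2 libraries stood at 1877 and 1915 per 1000 and the other 3 between 194 and 264. The high pair, replicates 3 and 4, had the fewest mir-150 counts of that age, 2211 and 364. mir-150 itself averaged 387 ± 310 CPM at 24 months (n = 5, SD). The difference in the log2 ratio at 24 months was 1.63 ± 0.78 with an exact permutation adjusted p of 0.0423. At 9 months it was 0.86 ± 0.34 with the same adjusted p, and at 15 months it was 0.46 ± 0.24 and did not pass, with an exact permutation adjusted p of 0.0747. The 15-month ratio passed without 2 months replicate 4 and without 15 months replicate 3, at 0.56 in both cases and with an exact permutation adjusted p down to 0.0441. Without any 1 of the 2-month libraries the 24-month call ended, with adjusted p up to 0.168, and the 9-month call ended without 2 months replicates 1, 2, 3 or 5, with adjusted p up to 0.127. mir-150 itself had 288 ± 92.9 CPM at 30 months, against 356 ± 81.5 CPM at 2 months (n = 5 each, SD), with an adjusted p of 0.713 by edgeR.

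mir-126a, a hairpin of endothelium and platelets, moved the opposite way. It fell to 5.05 ± 2.05 CPM at 30 months, against 12.9 ± 1.77 CPM at 2 months (n = 5 each, SD). The log2 change was -1.35, with an adjusted p of 0.0101 by edgeR. mir-126a had few counts, 29 to 96 in the 30-month libraries and 170 to 275 in the 2-month libraries. Its ratio to mir-223 therefore moved on both sides: mir-223 over mir-126a was higher by 2.85 ± 0.46 log2 units at 30 months, by 1.84 ± 0.18 at 24 months and by 1.76 ± 0.46 at 9 months, each with an exact permutation adjusted p of 0.0132. At 15 months the difference was 0.71 ± 0.32 and did not pass, with an exact permutation adjusted p of 0.0794. It passed without 15 months replicate 1, at 0.83, and without 15 months replicate 3, at 0.91 with an exact permutation adjusted p of 0.0244. The strand setting was not given, so reads of mir-126a and of its antisense partner mir-126b may not have been kept apart. mir-126b was not among the 157 hairpins compared with mir-223 below, whose mean reached 10 CPM at an age. Over mir-23a, also abundant in myeloid cells, the log2 ratio differed less, by 0.53 ± 0.18 at 30 months with an exact permutation adjusted p of 0.0496 and by 0.13 ± 0.13 at 24 months with one of 0.359. It was 0.29 ± 0.11 at 9 months with an adjusted p of 0.0423 and 0.07 ± 0.09 at 15 months with one of 0.421. The 9-month call ended without any 1 of the 2-month libraries, with adjusted p up to 0.102. The 30-month call ended in 9 of 10 cases of a left-out library, with adjusted p up to 0.0855, and it remained without 30 months replicate 5.

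**Figure D3:**
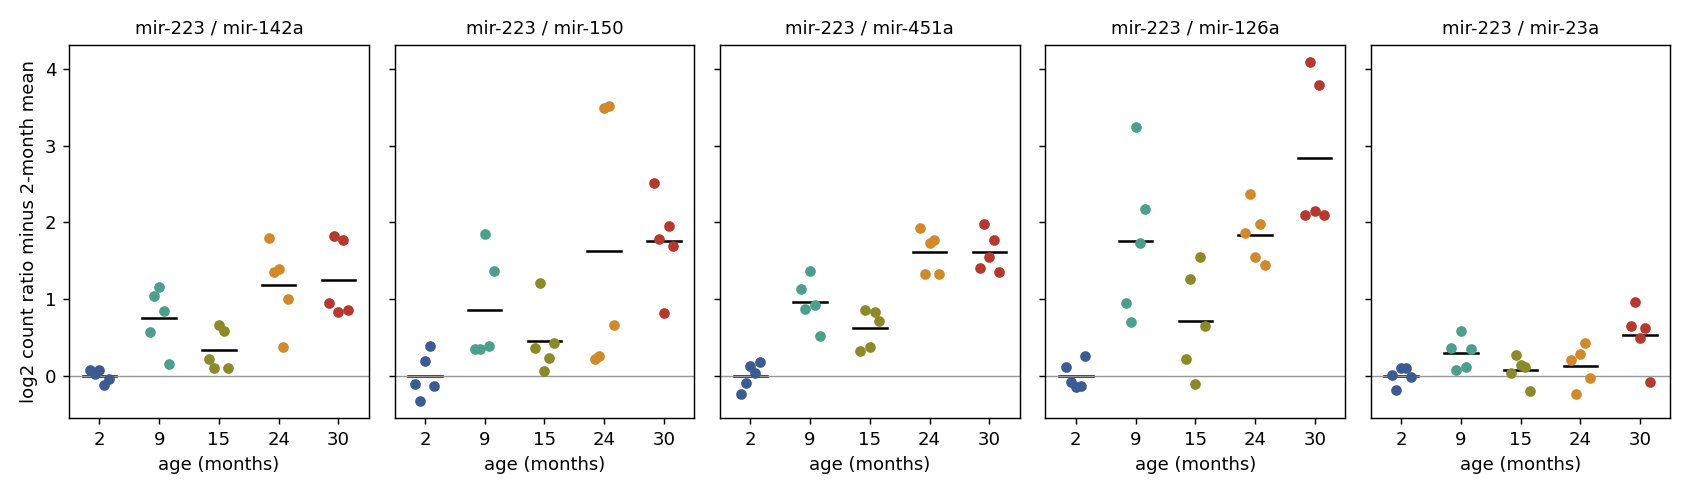
log2 ratio of mir-223 counts to those of mir-142a, mir-150, mir-451a, mir-126a and mir-23a in each library, less the 2-month mean; points are libraries and horizontal bars means (n = 5 each). The mean rise at 30 months is 1.24 over mir-142a and 0.53 over mir-23a, and the 24-month libraries fall into a high pair and 3 lower ones over mir-150.

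mir-223 was also set among 12 hairpins known from neutrophils, monocytes and macrophages, itself included. That list was chosen with earlier results of these data known. At 30 against 2 months 8 of the 12 rose, 0 fell and 4 did not pass, against 9.17% higher among all tested hairpins. The median log2 change of the 12 was 0.642, beside -0.0379 over all tested. At 24 months 6 rose, against 7.69% higher over all tested, and at 9 months 2 rose (mir-223 and mir-23a), against 1.18%. At 15 months 0 passed the test by edgeR, against 0.592% higher, although the median was 0.323. Over the line of age 10 of the 12 rose, against 10.7% over all tested; without the 2-month libraries the count was 1, and with no filter on low counts it was 5. The summed level of the 12, most of it mir-21a, ran from 3606 to 7656 CPM at 30 months, against 4357 to 8642 CPM at 2 months, and these ranges overlapped. Without 2 months replicate 3, or without 30 months replicates 4 and 5, the count at 30 months was 4, and with no filter on low counts it was 2. At 9 months mir-223 was the 1 call left without any 1 of 2 months replicates 1, 3, 4 or 5 or 9 months replicates 2, 3, 4 or 5. Of these 12 mir-223 had the largest log2 change at 9, 24 and 30 months, and mir-146a had the largest at 15 months, at 0.71 with an adjusted p of 0.783.

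mir-23a, mir-27a and mir-24-2 come from 1 cluster that is active in myeloid cells. mir-23a averaged 75.3 ± 18.5 CPM at 30 months, against 40.3 ± 5.18 CPM at 2 months (n = 5 each, SD), with a log2 change of 0.90 ± 0.17 and an adjusted p of 6.58e-04 by edgeR. mir-27a had a log2 change of 0.58 with an adjusted p of 0.0426, and mir-24-2 one of 0.43 with an adjusted p of 0.00755. Like mir-223, mir-23a and mir-27a rose at 24 against 15 months, by 0.64 and 0.76 with an adjusted p of 0.0352 each by edgeR. With upper-quartile factors 0 of the 12 were called in that comparison, and in a fit of those ages alone 0 hairpins of the whole table were called. The reads of mir-24-2 cannot be told from those of mir-3074-2 on the opposite strand. The name of its 3p arm, miR-24-3p, gives no locus, so its reads may not have been kept apart from those of mir-24-1. Over the 25 libraries mir-24-1 averaged 32.96 CPM and mir-24-2 39.84 CPM. The rise of mir-24-2 therefore cannot be placed in this cluster alone.

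mir-146a and mir-146b, which restrain NF-kB signalling in innate immune cells, had log2 changes of 1.15 and 0.70 at 30 months. mir-146b passed with an adjusted p of 0.0370, and mir-146a did not, with one of 0.0519 and a spread of 32.3 CPM around a mean of 41.9 CPM at 30 months. Of the cluster that holds mir-99b, let-7e and mir-125a, mir-99b rose by 0.95 (adjusted p 0.0251) and mir-125a by 0.76 (adjusted p 0.0426), while let-7e was scarce and had a log2 change of -0.42 (adjusted p 0.453). Of mir-132 and mir-212, which share a cluster, mir-132 rose by 0.50 (adjusted p 0.0229), and mir-212 had a log2 change of 0.46 (adjusted p 0.0547). mir-21a, abundant in many cell types, had 5504 ± 1811 CPM at 30 months, against 6056 ± 1729 CPM at 2 months (n = 5 each, SD), with an adjusted p of 0.779. All these p-values are from edgeR.

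**Figure D4:**
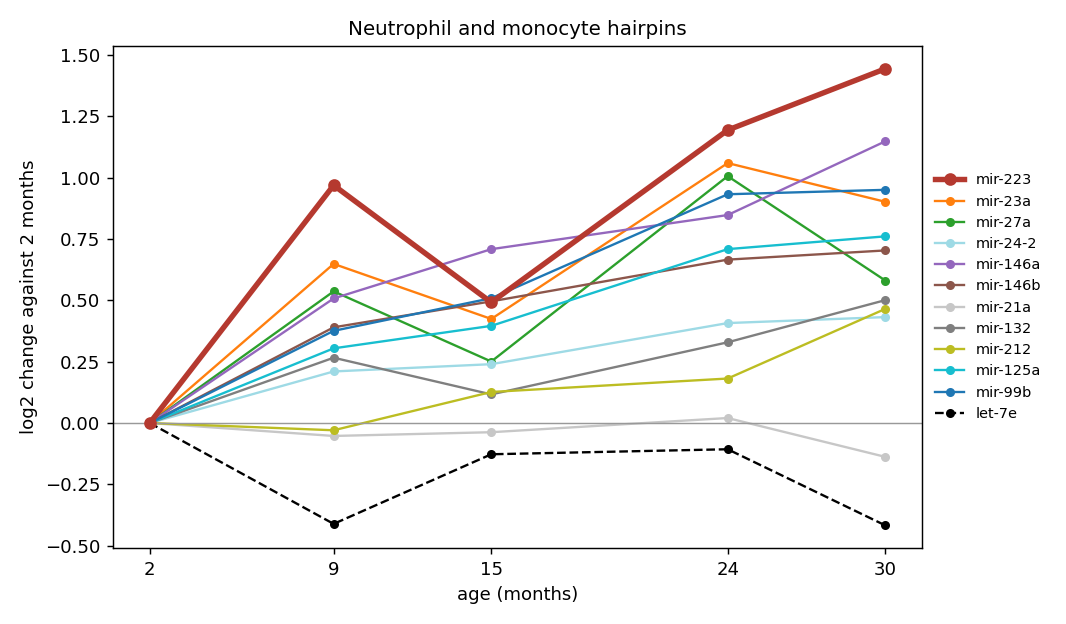
log2 change against 2 months of 12 hairpins known from neutrophils, monocytes and macrophages, over age in months; lines join the fitted changes, and mir-223 is the thick line. mir-223 reaches 1.44 at 30 months, let-7e (dashed) lies at -0.42, and mir-223, mir-23a, mir-27a and mir-132 are lower at 15 than at 9 months.

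Hairpins whose levels ran most like those of mir-223 were sought over the 25 libraries among 157 whose mean reached 10 CPM at an age, by Pearson's r of log2 CPM. The values are descriptions: the libraries share ages, depth and scaling. The 5 most like were mir-23a (r = 0.857), mir-203 (0.814), mir-330 (0.781), mir-335 (0.776) and mir-24-2 (0.751). After each age's mean was taken out, r was 0.554 for mir-23a, 0.674 for mir-330 and 0.678 for mir-335, but 0.131 for mir-203 and 0.226 for mir-24-2. The resemblance of mir-203 and mir-24-2 to mir-223 thus lay mostly between ages, and that of mir-330 and mir-335 also among animals of an age.

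The mature arms of these 5 are shown with their seeds in capitals, to be read beside those of mir-223.
mmu-miR-23a-5p: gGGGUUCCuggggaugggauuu
mmu-miR-23a-3p: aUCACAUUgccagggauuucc
mmu-miR-203-5p: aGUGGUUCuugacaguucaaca
mmu-miR-203-3p: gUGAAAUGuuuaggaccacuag
mmu-miR-330-5p: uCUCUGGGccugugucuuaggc
mmu-miR-330-3p: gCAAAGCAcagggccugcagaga
mmu-miR-335-5p: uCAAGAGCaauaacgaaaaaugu
mmu-miR-335-3p: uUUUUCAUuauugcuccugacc
mmu-miR-24-2-5p: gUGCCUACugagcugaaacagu
mmu-miR-24-3p: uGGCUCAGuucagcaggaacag
With the arms of mir-223 these made 12 arms and 12 different seeds. No seed was shared between any of them.

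In mean level mir-23a and mir-330 were also lower at 15 than at 9 months, and the other 3 were not. At 15 against 9 months the log2 change was -0.22 ± 0.16 for mir-23a and -0.21 ± 0.21 for mir-330, beside -0.48 ± 0.17 for mir-223. It was 0.04 ± 0.15 for mir-203, 0.04 ± 0.21 for mir-335 and 0.03 ± 0.10 for mir-24-2 (SE). mir-330 averaged 29.7 ± 9.40 CPM at 30 months, against 18.7 ± 3.84 CPM at 2 months, and mir-335 12.3 ± 3.21 CPM and 5.87 ± 1.25 CPM (n = 5 each, SD). Both were chosen for their likeness to mir-223, and mir-335 reached 10 CPM in its mean at 30 months alone.

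The hairpins that ran least like mir-223 were mir-296 (r = -0.802), mir-126a (-0.729) and mir-32 (-0.720). let-7f-1 (-0.721) and let-7f-2 (-0.718), which share reads and were counted once as let-7f-2, lay beside mir-32. mir-296 had 6.43 ± 0.633 CPM at 30 months, against 96.6 ± 11.9 CPM at 2 months (n = 5 each, SD), a log2 change of -3.91. Within ages its r with mir-223 was 0.0115, so the opposition lay between ages. For mir-126a and mir-32 the r within ages was -0.478 and -0.492.

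Markers of the other cells in blood, and of tissues that a blood draw can touch, were read beside mir-223 at 30 against 2 months. Over all tested hairpins 9.17% were higher and 5.03% were lower in that comparison. Of 10 lymphocyte hairpins 0 rose and 0 fell, and their median log2 change was -0.0284. Their summed level ran from 2225 to 3454 CPM at 30 months and from 2527 to 3585 CPM at 2 months. The 2 with the lowest p were mir-31, with a log2 change of -0.76 and an adjusted p of 0.0762, and mir-155, with 0.97 and 0.138. At 9 against 2 months mir-31 fell by 1.18 on the log2 scale, with an adjusted p of 0.0266 by edgeR.

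Of 8 platelet hairpins 2 rose and 2 fell, against 9.17% higher and 5.03% lower over all tested. mir-199a-1 fell by 1.66 on the log2 scale (adjusted p 0.00755) and mir-126a also fell, while mir-28a rose by 0.67 (adjusted p 0.00886) and mir-222 by 0.31 (adjusted p 0.0426), all by edgeR. mir-199a-1 was scarce, at 0.351 ± 0.185 CPM at 30 months and 1.18 ± 0.0658 CPM at 2 months (n = 5 each, SD). In the 30-month libraries the floor of 3 counts lay between 0.230 and 0.522 CPM. The summed platelet level was 1049 to 1583 CPM at 30 months and 1110 to 1421 CPM at 2 months. Against the same shares, of 7 tested red cell hairpins mir-182 and mir-183 rose and mir-144 fell, with log2 changes of 1.42, 0.80 and -1.41 and adjusted p of 0.00652, 0.0285 and 0.0101 by edgeR. The part of these cells in the level of mir-223 was not tested.

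Against the same shares of 9.17% and 5.03%, of 5 tested epithelial hairpins mir-203 rose by 1.66 on the log2 scale (adjusted p 1.25e-08) and mir-205 fell by 1.004 (adjusted p 0.0426) by edgeR. mir-205 was scarce, at 0.940 ± 0.220 CPM at 30 months and 1.87 ± 0.527 CPM at 2 months (n = 5 each, SD). The summed epithelial level was 36.7 to 94.1 CPM at 30 months and 68.8 to 127 CPM at 2 months. Of the muscle hairpins mir-206 was at 0 in all libraries, and the 2 tested gave no call; their list summed to 9.40 to 43.9 CPM at 30 months and 23.2 to 235 CPM at 2 months. The 3 tested liver hairpins gave no call either, and that list summed to 3979 to 6068 CPM at 30 months and 3174 to 4313 CPM at 2 months, mostly mir-192.

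The older ages lay above 2 months in every sequencing lane that held both. This had to follow, because every 2-month library lay under every library of the other ages, so it is no separate support. Within a lane each age had 1 library, but for 2 libraries of 30 months in lane 6. Within lanes, the log2 difference to 2 months ran from 0.74 to 1.36 at 9 months, from 0.24 to 0.71 at 15 months, from 0.86 to 1.36 at 24 months and from 0.96 to 1.83 at 30 months, over 4 lanes each. The 15-month level lay below the 9-month level in 4 of 4 lanes, by -0.82 to -0.18. At 24 against 15 months the difference was above 0 in 4 of 4 lanes and at 30 against 15 months in 3 of 3. These directions were fixed in the same way, because the libraries of those ages did not overlap. At 24 against 9 months it was above 0 in 3 of 4 lanes and at 30 against 24 months in 2 of 3. Lane 3 held no 2-month and no 30-month library.

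**Figure D5:**
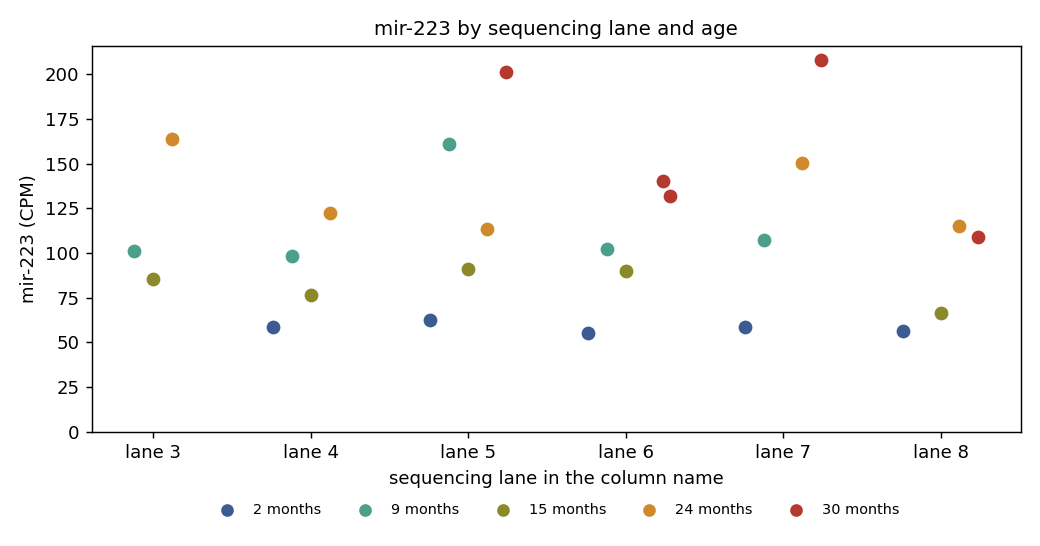
mir-223 in CPM by sequencing lane, as named in the columns of the table; each point is 1 library, coloured by age from 2 to 30 months. In lanes 4 to 8 the 2-month library is the lowest, and in every lane with both ages the 15-month library lies under the 9-month library.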

How the data were processed

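The authors deposited 1 table of raw counts per microRNA hairpin, with 25 columns. Per the submitters' processing notes the tools included bcl2fastq 1.8.4, Trimmomatic 0.36 and SAMtools 1.3.1-9. The aligner, counter, build and strand setting were not given in the sources used here. Hairpins passing filterByExpr by age were fitted once over all libraries with TMM factors and edgeR 4.0.16's robust quasi-likelihood test (R 4.3.3), with Benjamini-Hochberg adjustment over them. SE is the log2 change over the root of F. Count ratios were tested by exact permutation over 252 splits. The fit was run on simulated counts in which each hairpin had the same spread at every age. Those cannot show how it behaves where the spread differs by age, as it did for mir-223. Alternatives used limma 3.58.1 (voom), DESeq2 1.42.0, other scalings and filters, lane, thinned counts and left-out libraries. Of 50 pairs of libraries of an age, none agreed within sampling noise (smallest chi-square per degree of freedom 126.8). Named hairpins were mir-223, its ratio partners, the myeloid list, the 5 most and 3 least correlated, and up to 2 per other list by p; further list members were named after their values were seen. mir-142 was read from the entry mir-142a. mir-223 and the lists were chosen with earlier results of these data known. Sequences and positions come from RefSeq and GENCODE M21 (GRCm38.p6).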

Additional observations from a re-analysis of the deposited data

Results flagged for a closer look

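mir-223 in 9 months replicate 3 stood apart from the other libraries of its age. It had 161 CPM there, and the nearest of the other 4 had 107 CPM, a gap of 0.857 of the whole range at that age, over Dixon's critical value of 0.71. Of 30 groups of libraries examined this way 1 was picked out, and chance picks about 1 in 20.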

How the results depend on the processing

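Of the calls on mir-223, those at 9, 24 and 30 months against 2 months, at 30 against 15 months, over all ages and in the pooled contrast kept their direction and stayed past the threshold under every alternative run. The log2 change ran from 0.81 to 1.07 at 9, 1.14 to 1.58 at 24 and 1.39 to 1.66 at 30 against 2 months, 0.83 to 1.08 at 30 against 15 months, and 0.52 to 0.76 pooled; no result reversed. The call at 24 against 15 months ended with upper-quartile factors (0.79, adjusted p 0.0635), with no filter (0.61, 0.333), in a fit of those ages alone (0.68, 0.119) and with left-out libraries (0.61 to 0.78). With left-out libraries 30 against 9 months ran from 0.40 to 0.70 and became a call without 9 months replicate 3. The adjusted p for departure from a line ran from 0.0455 to 0.711 over left-out libraries and was 0.00891 with DESeq2. The trend without the 2-month libraries was 0.0316 log2 units per month (adjusted p 0.0600). Over left-out libraries the log2 ratio to mir-142a at 15 months ran from 0.25 to 0.39, to mir-150 from 0.61 to 0.99 at 9, 0.27 to 0.56 at 15 and 1.16 to 1.98 at 24 months, to mir-126a from 0.50 to 0.91 at 15 months, and to mir-23a from 0.22 to 0.35 at 9 and 0.42 to 0.68 at 30 months. The ratios to mir-150 and mir-126a at 15 months passed in 2 of 10 cases each, and the others lost the call in some; with fewer libraries fewer splits exist. Counts of hairpins called over all alternatives ran, beside the reported count, from 14 to 44 (27) over all ages, 9 to 89 (67) for the trend, 1 to 4 (1) for departure from a line, 9 to 39 (13) pooled, and against 2 months from 3 to 8 (7) at 9, 2 to 5 (5) at 15, 23 to 72 (41) at 24 and 15 to 58 (48) at 30 months. They ran from 2 to 7 (6) at 24 and 2 to 9 (5) at 30 against 9 months, 0 to 16 (7) at 24 and 3 to 9 (5) at 30 against 15 months, and 0 to 1 (0) at 30 against 24 months. The myeloid count ran from 2 to 10 (8) at 30 months, 1 to 2 (2) at 9 months and 1 to 10 (10) for the trend. Where no value is given, the cause was not tested. Leaving out both libraries under 6 M counts, or 30 months replicates 4 and 5, was chosen after seeing the data. No paired analysis was possible because replicate numbers only name libraries and the labels share no numbers across ages. Libraries of different ages did share lanes, and with lane as a term every call on mir-223 stayed on its side of the threshold. Counting error limited mir-223 little, and the 5 libraries an age set the precision.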
